A study of Mus musculus with 6 samples.

Results

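The receptors for prostaglandins and bradykinin form a small group of G protein-coupled receptor genes, of which 8 were read here: Ptger1, Ptger2, Ptger3 and Ptger4 for prostaglandin E2, Ptgir for prostacyclin, Ptgdr for prostaglandin D2, and Bdkrb1 and Bdkrb2 for kinins. The members were set by gene name, and all 8 were found among the 54532 gene rows. The data are bulk RNA-seq of dorsal root ganglia, which hold the cell bodies of the sensory neurons that serve skin, muscle and viscera, from C57BL/6 mice aged 8 weeks. The Hdac2 conditional knockout (Hdac2 cKO, 3 libraries, Adv-Cre+/hdac2-flop++) carried floxed Hdac2 together with a Cre recombinase driven by the promoter of Advillin, a gene of primary sensory neurons. The WT group (3 libraries, hdac2-flop++) consisted of littermates that carried floxed Hdac2 but no Cre. Any effect of Cre alone therefore cannot be told apart from that of the deletion. The study asked how loss of the histone deacetylase HDAC2 in sensory neurons alters genes linked to chronic pain.

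As background, tissue injury and inflammation release prostaglandins, made from arachidonic acid by the cyclooxygenases, and bradykinin, cut from kininogen by kallikreins. Both act on receptors of pain-sensing neurons and lower the threshold at which these neurons fire. The receptors EP2, EP4, IP and DP1 (genes Ptger2, Ptger4, Ptgir and Ptgdr) couple to the G protein Gs and raise cyclic AMP, and EP3 (Ptger3) mainly couples to Gi, which lowers it. EP1 (Ptger1) raises intracellular calcium. The bradykinin B2 receptor (Bdkrb2) is present constitutively and signals through Gq and phospholipase C, while the B1 receptor (Bdkrb1) is typically induced by injury or inflammation.

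Values are given as normalised read counts, that is, reads per gene after division by 1 factor for each library. A log2 fold change is the mean of log2 (value + 1) in Hdac2 cKO minus that in WT, which understates differences of low genes. Reads assigned to genes ranged from 27787407 to 42070531 in Hdac2 cKO and from 18943595 to 31338593 in WT libraries. Hdac2 stood at 499, 372 and 535 in Hdac2 cKO 1, 2 and 3, against 2816, 1715 and 3498 in WT 1, 2 and 3, so the targeted gene went the way of the labels (log2 fold change -2.47). Limma did not call it (adjusted p = 0.927), while DESeq2 did. All 9 pan-neuronal markers were detected, with sums of 281665 to 361555 in Hdac2 cKO and 266088 to 412912 in WT. WT 3 stood apart from the other libraries and received the lowest weight (0.101) when libraries were weighted by their fit. Y-linked genes were read at male levels in Hdac2 cKO 2 and in WT 2 and WT 3, so sex was not balanced between the groups. In whole ganglia, fewer cells of a type and less RNA per cell cannot be told apart.

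Promoter sequence is shown for every receptor that the RefSeq promoter table held, 6 of the 8, so that the stretches can be compared between members. The sequences are the 250 bases before the RefSeq start (GRCm38.p6), on the strand of the gene. Capitals mark matches, on either strand, to the GC box GGGCGG or to CCAAT.
Ptger2, chr14:44987861-44988110, plus strand: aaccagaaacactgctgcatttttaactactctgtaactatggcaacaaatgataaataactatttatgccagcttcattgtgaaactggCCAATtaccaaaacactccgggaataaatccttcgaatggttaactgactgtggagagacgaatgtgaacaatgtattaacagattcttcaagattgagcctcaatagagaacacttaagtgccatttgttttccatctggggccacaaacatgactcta
Ptger3, chr3:157566626-157566875, plus strand: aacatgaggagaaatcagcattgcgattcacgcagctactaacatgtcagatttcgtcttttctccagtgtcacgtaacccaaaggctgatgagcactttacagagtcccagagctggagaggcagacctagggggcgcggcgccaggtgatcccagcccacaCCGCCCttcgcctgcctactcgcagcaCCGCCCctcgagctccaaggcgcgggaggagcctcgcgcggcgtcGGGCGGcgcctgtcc
Ptger4, chr15:5244188-5244437, minus strand: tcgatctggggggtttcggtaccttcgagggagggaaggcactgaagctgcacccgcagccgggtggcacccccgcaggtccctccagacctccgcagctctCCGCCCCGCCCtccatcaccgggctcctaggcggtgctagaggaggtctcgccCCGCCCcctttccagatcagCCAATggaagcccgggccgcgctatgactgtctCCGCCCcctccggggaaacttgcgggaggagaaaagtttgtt
Ptgir, chr7:16906240-16906489, plus strand: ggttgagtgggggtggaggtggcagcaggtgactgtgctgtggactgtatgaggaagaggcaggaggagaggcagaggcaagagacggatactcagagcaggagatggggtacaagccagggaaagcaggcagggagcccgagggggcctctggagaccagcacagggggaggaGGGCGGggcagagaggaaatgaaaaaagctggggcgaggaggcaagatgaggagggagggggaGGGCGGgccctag
Ptgdr, chr14:44859376-44859625, minus strand: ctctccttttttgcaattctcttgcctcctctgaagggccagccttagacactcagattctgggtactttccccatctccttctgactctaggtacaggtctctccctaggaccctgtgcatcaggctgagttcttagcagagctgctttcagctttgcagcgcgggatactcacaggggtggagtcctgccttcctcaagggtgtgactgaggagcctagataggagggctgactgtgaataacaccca
Bdkrb2, chr12:105562922-105563171, plus strand: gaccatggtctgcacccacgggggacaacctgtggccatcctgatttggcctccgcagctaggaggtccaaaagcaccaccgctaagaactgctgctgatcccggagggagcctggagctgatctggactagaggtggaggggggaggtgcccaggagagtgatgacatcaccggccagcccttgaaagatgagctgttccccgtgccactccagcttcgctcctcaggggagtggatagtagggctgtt
The Ptger4 promoter held 4 GC boxes, a pair of them overlapping by 1 base, the Ptger3 promoter 3 and the Ptgir promoter 2. The promoters of Ptger2, Ptgdr and Bdkrb2 held 0, and 32.7% of 32851 promoters held a GC box. Ptger3 had 21 CpG dinucleotides, Ptger4 19, Bdkrb2 7, Ptgir 5, Ptger2 3 and Ptgdr 2, against a median of 6 over all promoters. G and C made up 66.8% of the Ptger4 stretch, 63.6% of Ptgir, 62.0% of Ptger3, 60.8% of Bdkrb2, 53.2% of Ptgdr and 38.0% of Ptger2, against a median of 52.4%. CCAAT was found in Ptger2 and Ptger4 (33.8% of promoters). None of the 6 stretches held the cyclic AMP response element TGACGTCA (1.55% of promoters), the AP-1 motif TGANTCA (6.75%) or TATAAA (12.4%), all searched on both strands. These are descriptions of the letters and say nothing of what binds there. GC-rich stretches were found both at receptors with a log2 fold change above 0 (Ptgir, Ptger3 and Bdkrb2) and at Ptger4, where it was below 0.

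Expression of the receptors differed widely. Per kilobase of exon (the union of all annotated exons), the mean over the 6 libraries was highest for Ptgir, at 429 normalised read counts per kilobase, and next for Ptgdr, at 355. Ptger3 followed at 149, Ptger4 at 57.6, Bdkrb2 at 38.4, Ptger1 at 15.6, Ptger2 at 7.72 and Bdkrb1 at 2.27. The ranges over libraries separated only some of these neighbours. Ptgir (182 to 561 per kilobase) and Ptgdr (268 to 531) overlapped, and so did Ptger3 (66.7 to 229) and Ptger4 (41.2 to 70.1). Ptger4 also overlapped Bdkrb2 (15.1 to 47.4), Bdkrb2 overlapped Ptger1 (11.7 to 22.1), and Ptger2 (2.36 to 10.1) overlapped Bdkrb1 (0 to 7.12). Ptgdr and Ptger3 did not overlap, and neither did Ptger1 and Ptger2. This order depends on the length used: by the longest coding transcript the mean of Ptger3 was 405 per kilobase, above Ptgdr at 355 and below Ptgir at 433. The overlaps depend on it as well. By that length Ptger3 (181 to 621) overlapped Ptgdr (268 to 531), and Ptger1 (13.6 to 25.7) overlapped Ptger2 (3.33 to 14.3). Ptger4 (84.0 to 143) then overlapped neither Ptger3 nor Bdkrb2 (15.1 to 47.4).

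**Figure D1:**
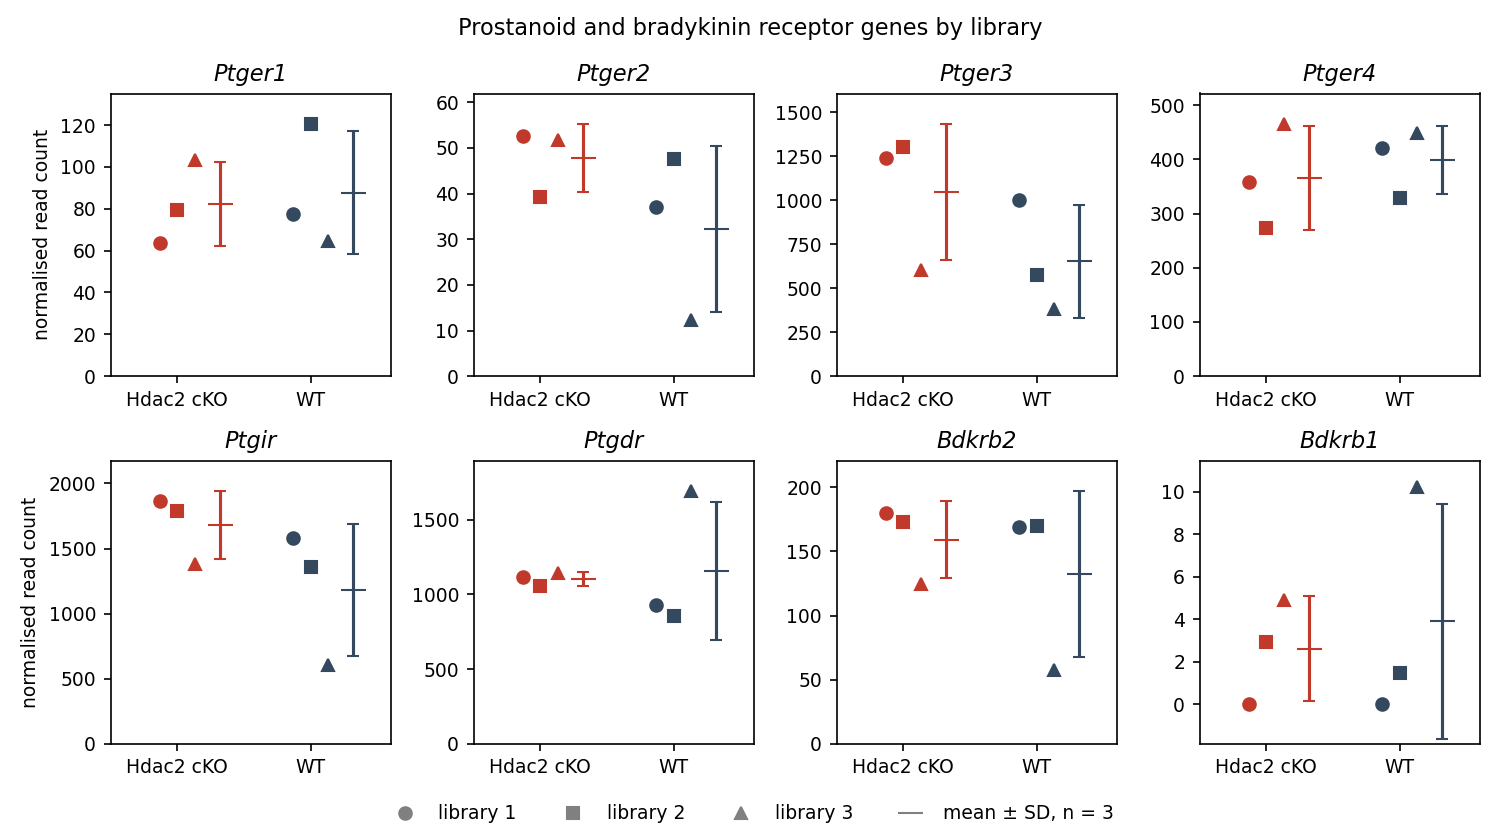
Normalised read counts (vertical axes, each panel with its own scale) of the 8 receptor genes in the Hdac2 cKO libraries and the WT libraries, with symbols for library numbers 1, 2 and 3 and bars for the mean ± SD of 3 libraries. WT 3 is the lowest point for Ptger2, Ptger3, Ptgir and Bdkrb2 and the highest for Ptgdr, and the groups overlap in every panel.

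After the filter on low values (10 or more in at least 3 libraries), 7 of the 8 receptors were tested, Bdkrb1 being too low. None of the 7 passed limma's test over all genes at an adjusted p of 0.05, against 0% of 18410 genes tested. At an unadjusted p under 0.05 there were 0 of the 7, against 1.85% of all genes. Neither edgeR nor DESeq2 on the recovered reads called any of them, DESeq2 having called 0.121% of genes. The groups did not overlap for 0 of the 7, against 8.54% of all genes tested, of which 4.63% were higher in Hdac2 cKO and 3.91% lower. Log2 fold changes were above 0 for 5 of the 7, against 55.3% of all genes. Among the 5 is Ptgdr, at 0.002, which turned to -0.020 with TMM scaling, and the sign of others turned with the libraries used, as given with each gene. The median of the 7 was 0.41, against 0.06 over all genes. The labels do not say whether a library came from 1 mouse or several, and p-values here rest on the spread of the libraries, which may be technical.

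Ptgir and Ptger3 had the smallest p of the receptors. Ptgir (ENSMUSG00000043017, mm10 chromosome 7, 16906490 to 16910905, plus strand) encodes the prostacyclin receptor, whose activation contributes to inflammatory pain in mice. Its level was 1869, 1788 and 1384 normalised read counts in Hdac2 cKO 1, 2 and 3, against 1579, 1358 and 607 in WT 1, 2 and 3. WT 3 lay far below all others, while Hdac2 cKO 3 lay below Hdac2 cKO 1 and 2 and within the WT range. The means were 1680.4 ± 259.8 in Hdac2 cKO and 1181 ± 509 in WT (SD, n = 3 each), and the log2 fold change was 0.61 (SE 0.38, 95% confidence interval -0.27 to 1.49). It did not pass (limma adjusted p = 0.927), and an exact two-sided permutation test gave p = 0.2, where 3 against 3 libraries allow no less than 0.1. Without WT 3 the log2 fold change was 0.19.

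Ptger3 (ENSMUSG00000040016, mm10 chromosome 3, 157566892 to 157645888, plus strand) encodes EP3, the prostaglandin E2 receptor that lowers cyclic AMP. Its values were 1238, 1301 and 601 in Hdac2 cKO 1, 2 and 3, against 1003, 575 and 379 in WT 1, 2 and 3. The library numbered 3 was the lowest of each group, and Hdac2 cKO 3 lay within the WT range, so the groups overlapped. Means were 1047 ± 387 in Hdac2 cKO and 652 ± 319 in WT (SD, n = 3 each). The log2 fold change was 0.71 (SE 0.44, interval -0.32 to 1.75; limma adjusted p = 0.927; exact permutation p = 0.2), and 0.38 without WT 3. Weighting libraries by their fit, which rests the WT mean mostly on WT 2 (weight 4.17), gave 0.98 and a call (limma adjusted p = 0.0429). Ptger3 was the only receptor so called, 1 of 7, against 3.08% of all genes.

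Both genes were higher in Hdac2 cKO for each library number. The Hdac2 cKO over WT ratios of Ptger3 were 1.23, 2.26 and 1.59 for numbers 1, 2 and 3. Those of Ptgir were 1.18, 1.32 and 2.28. With Bdkrb2, 3 of the 7 receptors were higher in all 3 pairs, against 18.2% of all genes tested. The labels do not say what the numbers mark. With the number as a block Ptger3 and Ptgir did not pass either (limma adjusted p = 0.674 for both), and with a term for the sex of the library their log2 fold changes were 0.63 and 0.50.

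The receptor genes read at lower levels gave no separation either. Ptger2 (ENSMUSG00000037759, chromosome 14, 44988195 to 45003820), the EP2 receptor, stood at 52.5, 39.3 and 51.8 in Hdac2 cKO 1, 2 and 3, against 37.1, 47.6 and 12.3 in WT 1, 2 and 3. Only WT 3 lay far from the rest, at 12 reads. The log2 fold change of 0.74 (SE 0.63, limma adjusted p = 0.927) was 0.17 without WT 3 and -0.0077 with libraries weighted. Ptger2 was the member with the largest fitted difference and also the one with the widest interval, from -0.73 to 2.21.

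Ptger4 (ENSMUSG00000039942, chromosome 15, 5206661 to 5244187, minus strand), the EP4 receptor, which raises cyclic AMP in sensory neurons, stood at 359, 274 and 466 in Hdac2 cKO 1, 2 and 3, against 421, 329 and 449 in WT 1, 2 and 3. Here the libraries numbered 3 were the highest of each group. Means were 366 ± 96.0 in Hdac2 cKO and 399.5 ± 62.6 in WT (SD, n = 3 each). The log2 fold change was -0.15 (interval -0.82 to 0.53; limma adjusted p = 0.937). Of the exon bases of Ptger4, 82 are shared with Ttc33 on the opposite strand and 1015 with a processed pseudogene, so reads there may not have been assigned to it.

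Ptger1 (ENSMUSG00000019464, chromosome 8, 83666678 to 83672753, plus strand), the EP1 receptor, stood at 63.7, 79.6 and 104 in Hdac2 cKO 1, 2 and 3, against 77.6, 121 and 64.4 in WT 1, 2 and 3. The log2 fold change was -0.07 (interval -1.04 to 0.91; limma adjusted p = 0.978), and its sign turned to 0.19 without WT 2 and to 0.10 without Hdac2 cKO 1. Its level is also uncertain because no strand setting is known, so reads from the opposite strand cannot be told apart from its own.

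Ptgdr (ENSMUSG00000071489, chromosome 14, 44851235 to 44859375, minus strand), the prostaglandin D2 receptor DP1, was the most even receptor among the knockout libraries. It stood at 1116, 1054 and 1145 in Hdac2 cKO 1, 2 and 3, against 929, 853 and 1692 in WT 1, 2 and 3. Hdac2 cKO was above both WT 1 and WT 2 and below WT 3. The means were 1105 ± 46.7 in Hdac2 cKO and 1158 ± 464 in WT (SD, n = 3 each), and the log2 fold change was 0.002 (interval -0.68 to 0.69; limma adjusted p = 0.999). Without WT 3 it was 0.31. The interval is wide enough to hold a log2 difference of the size seen for Ptgir.

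Of the kinin receptors, Bdkrb2 (ENSMUSG00000021070, chromosome 12, 105563226 to 105595237, plus strand) stood at 179.8, 173 and 124 in Hdac2 cKO 1, 2 and 3, against 169, 169.7 and 57.2 in WT 1, 2 and 3. Libraries 1 and 2 of both groups were nearly equal, and the libraries numbered 3 were lower in both. Means were 159 ± 30.2 in Hdac2 cKO and 132 ± 64.9 in WT (SD, n = 3 each), and the log2 fold change of 0.41 (interval -0.74 to 1.56; limma adjusted p = 0.927) turned to -0.11 without WT 3. Bdkrb1 (ENSMUSG00000041347), which starts 7848 bases beyond the end of Bdkrb2 on the same strand, had 0, 3 and 7 reads in Hdac2 cKO 1, 2 and 3, against 0, 1 and 10 in WT 1, 2 and 3. A count of 0 allows up to 3 reads, or 3.03 normalised read counts in Hdac2 cKO 1 and 2.65 in WT 1, for counting error only. The B1 receptor gene thus had 10 reads or fewer in every library, and no difference between groups was detectable at this depth.

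**Figure D2:**
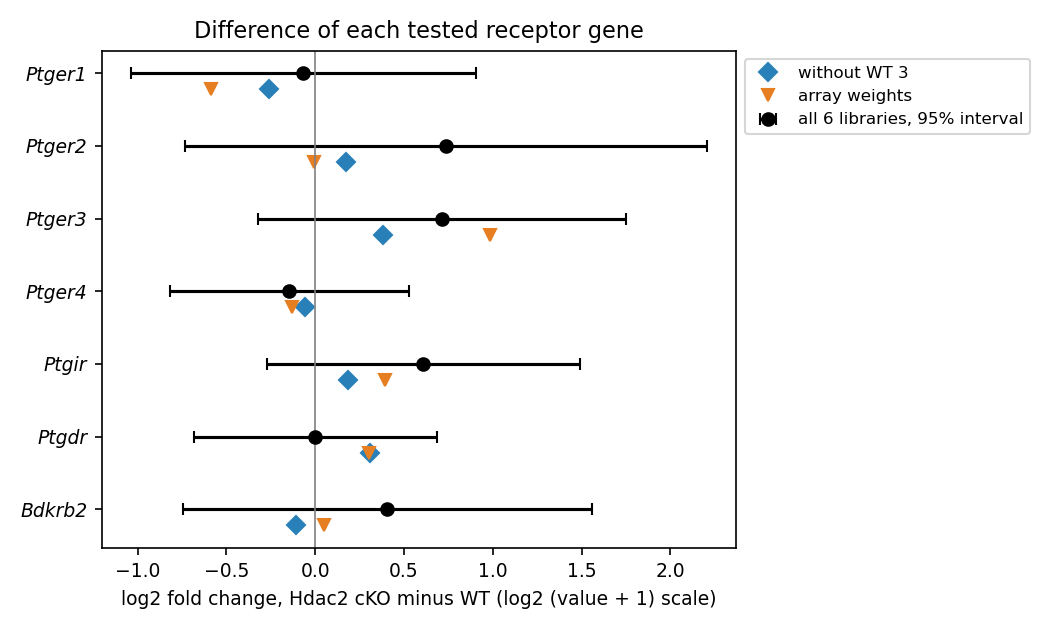
Log2 fold change (horizontal axis, Hdac2 cKO minus WT, log2 (value + 1) scale) of the 7 tested receptor genes with its 95% confidence interval (black), without WT 3 (blue diamonds) and with libraries weighted by their fit (orange triangles). Every interval of the 6-library fit holds 0, and leaving out WT 3 moves Ptgir to 0.19, Ptger2 to 0.17 and Bdkrb2 to -0.11.

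The makeup of the group within a library does not depend on the scaling of that library. Ptgir made up 44.8, 44.4 and 40.9% of the summed per-kilobase level of the 8 receptors in Hdac2 cKO 1, 2 and 3, against 44.2, 45.1 and 20.6% in WT 1, 2 and 3. Ptgdr made up 28.0, 27.4 and 35.4% in Hdac2 cKO, against 27.2, 29.7 and 60.1% in WT. All libraries but WT 3 thus held nearly the same proportion of Ptgir, and in WT 3 Ptgdr was the main receptor gene instead. The share of Ptger3 was 15.6 ± 4.55% in Hdac2 cKO and 11.7 ± 4.49% in WT (SD, n = 3 each; exact permutation p = 0.3). No receptor's share separated the groups, the exact permutation p ranging from 0.3 to 1. The summed level of the Gs-coupled receptors Ptger2, Ptger4, Ptgir and Ptgdr was 975, 916 and 854 per kilobase in Hdac2 cKO 1, 2 and 3, against 835, 734 and 783 in WT 1, 2 and 3. Those sums did not overlap, although each of the 4 genes did. The nearest values were 854 in Hdac2 cKO 3 and 835 in WT 1. Unlike the shares, the sums depend on the scaling of each library, and no other scaling was tried for them. Of the 3 groupings summed, the Gs-coupled receptors were the 1 that separated the libraries, and for single genes the share without overlap was 8.54%. The 4 prostaglandin E2 receptors summed to 293, 292 and 205 per kilobase in Hdac2 cKO 1, 2 and 3, against 261, 182 and 148 in WT 1, 2 and 3, and all 8 receptors to 1252, 1207 and 1015, against 1071, 903 and 883, both with overlap. In WT 3 Ptgir was low and Ptgdr high.

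**Figure D3:**
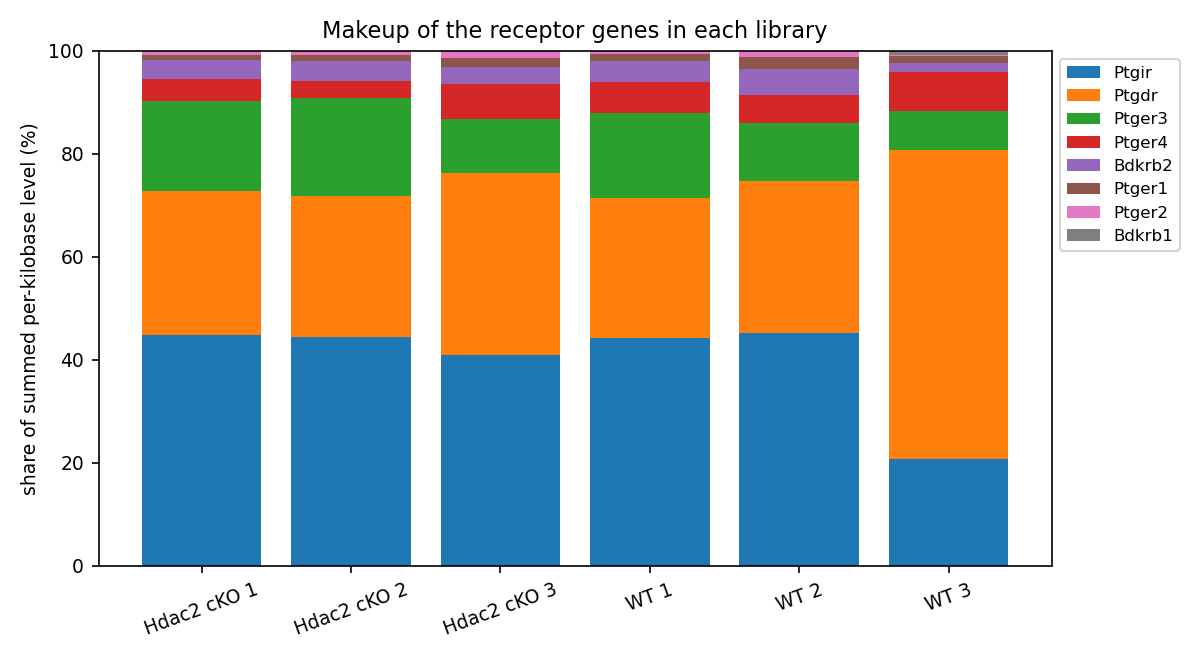
Share of each receptor gene in the summed per-kilobase level of the 8 genes (vertical axis, percent) in the 3 Hdac2 cKO and 3 WT libraries, with the union of exons as length. Ptgir holds 40.9 to 45.1% in every library but WT 3, where it holds 20.6% and Ptgdr 60.1%.

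The receptors fell into patterns across the 6 libraries. Ptger2, Ptger3, Ptgir and Bdkrb2 were lowest in WT 3, 4 of the 7 tested, against 40.4% of all genes tested. Ptgdr alone was highest there, 1 of 7, against 30.5% of all genes. Bdkrb2 and Ptgir correlated by Pearson's r = 0.96 over 6 libraries on the log2 scale, and Bdkrb2 and Ptgdr by -0.90. Among 204 other tested genes of the lists used here, the gene nearest to Ptgir was Prkar2b, a regulatory subunit of protein kinase A (r = 0.99), followed by Piezo2, the touch channel (0.99). Nearest to Ptger3 were the macrophage receptors Mrc1 (0.97) and Cd163 (0.97). Bdkrb2 was nearest to the macrophage gene Cd68 (0.998) and the glial potassium channel gene Kcnj10 (0.99). Ptgdr was nearest to Calcb, a calcitonin gene-related peptide gene of nociceptors (0.97), and to Hpgds, the hematopoietic prostaglandin D synthase (0.97). Ptger2 went with Snap25, a gene of synaptic vesicle release in neurons (0.98). Ptger1 was nearest to the glucose transporter gene Slc2a1 (0.94), and Ptger4 to Rgs2, a regulator of G protein signalling (0.91). With 6 libraries, many of them marked by a low or high WT 3, such values describe these libraries only.

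**Figure D4:**
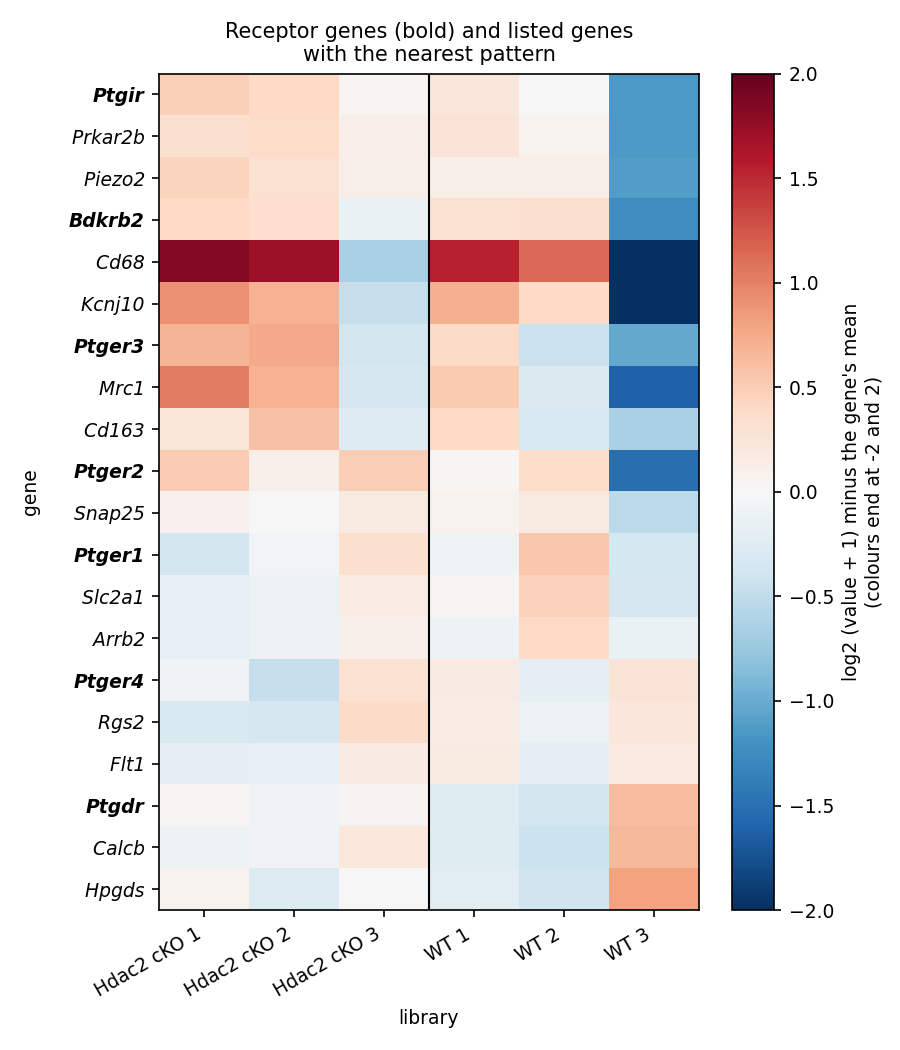
Log2 (value + 1) minus the mean of the gene (colour) in each library (columns, Hdac2 cKO left of the line and WT right of it) for the 7 tested receptor genes (bold) and, under each, listed genes with the most similar patterns. WT 3 is lowest for the groups led by Ptgir, Bdkrb2, Ptger3 and Ptger2 and highest for the group led by Ptgdr.

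Markers of other cells moved with some of these values. The 10 macrophage markers summed to 9363, 10955 and 3270.4 in Hdac2 cKO 1, 2 and 3, against 11108, 4744 and 2655 in WT 1, 2 and 3, and thus were low in both libraries numbered 3, as Ptger3 and Bdkrb2 were. None of the 10 was at 0 in all libraries, and Cd68 was at 0 in WT 3. The sum does not hold for each marker: Aif1 was highest of each group in Hdac2 cKO 3 (346) and WT 3 (520). Lymphocyte and granulocyte markers summed to 9152, 14417 and 275 in Hdac2 cKO 1, 2 and 3, against 15742, 920 and 289 in WT 1, 2 and 3. Both libraries numbered 3 were low again, but WT 2 was also far below WT 1. Markers of non-peptidergic and itch neurons summed to 22364, 23211 and 24543 in Hdac2 cKO 1, 2 and 3, against 19498, 19090 and 20340.5 in WT 1, 2 and 3, without overlap. Of the 11 genes, 4 were higher in every knockout library, against 4.63% of all genes tested. Log2 fold changes were above 0 for 8 of them and below 0 for 3, with Sst (-0.66) and Gfra2 (-0.26) among the latter. The WT 3 sum held Gfra2 at 11310, its highest value, and P2rx3 at 513, its lowest. Mast cell markers, of which 7 of 7 had a log2 fold change above 0, summed to 2803 to 3222 in Hdac2 cKO and 2192 to 2512 in WT, most of it from Kit, which sensory neurons also express. Markers of peptidergic nociceptors summed to 61981 to 75705 in Hdac2 cKO and 55448 to 92292 in WT, the highest sum being that of WT 3, where Ptgdr was highest. Large-diameter neuron markers summed to 175766 to 256605 in Hdac2 cKO and 179736 to 224087 in WT. Fibroblast and sheath cell markers summed to 19196 to 33642 in Hdac2 cKO and 33044 to 38577 in WT. Endothelial and mural markers summed to 12499 to 15717 in Hdac2 cKO and 13257 to 18010 in WT. Satellite glia markers summed to 116642 to 152720 in Hdac2 cKO and 143707 to 359921 in WT. Myelinating Schwann cell markers were lower in Hdac2 cKO in sum (130312 to 218433) than in WT (235391 to 353559), and skeletal muscle markers as well (106 to 1252, against 2620 to 10221). The part of these cells in the receptor values was not tested.

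The remaining genes of the pathways, taken from lists, did not separate the groups either: of the 92 tested genes in 8 lists, 0 passed by limma and 0 by DESeq2, and 2 (Pde4a and Scn9a) had an unadjusted p under 0.05, against 1.85% of all genes. The groups did not overlap for 8 of the 92, against 8.54% of all genes, so both shares lay near the background. Of the other prostanoid receptors, Ptgfr, the prostaglandin F2 alpha receptor, stood at 1540, 1603 and 1588 in Hdac2 cKO 1, 2 and 3, against 1413, 1303 and 1135 in WT 1, 2 and 3. It was higher in every knockout library (log2 fold change 0.30, SE 0.19; limma adjusted p = 0.927). For Tbxa2r, the thromboxane receptor, the log2 fold change was -0.85 (SE 0.53). Ptgdr2, the second prostaglandin D2 receptor, was at 0 to 4.47 in every library.

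Of 17 genes for the synthesis and clearance of prostanoids, 8 had a log2 fold change above 0 and 9 below it, with a median of -0.07. Ptgs2, the inducible cyclooxygenase, stood at 14.1, 15.7 and 9.79 in Hdac2 cKO 1, 2 and 3, against 22.1, 14.9 and 74.6 in WT 1, 2 and 3, so that WT 3 was again the library apart. Hpgd, the enzyme that inactivates prostaglandins, averaged 163 ± 31.5 in Hdac2 cKO and 96.4 ± 73.7 in WT (SD, n = 3 each), and the fitted log2 difference of 1.17 was 0.30 without WT 3. Abcc4, which exports prostaglandin E2, was the 1 gene of the list without overlap, at 774 to 846 in Hdac2 cKO and 646 to 689 in WT. Of 13 genes of kinin formation and breakdown 9 were tested, 3 above and 6 below 0, with a median of -0.12. Kng1, a kininogen gene, was read at 6.57 ± 9.68 in Hdac2 cKO and 31.6 ± 29.9 in WT (SD, n = 3 each).

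Downstream of the receptors, 15 of 23 genes of the Gs and cyclic AMP pathway were above 0 (median log2 fold change 0.25, and 0.015 without WT 3). Pde4a, a cyclic AMP phosphodiesterase, averaged 416 ± 21.7 in Hdac2 cKO and 254 ± 34.7 in WT (SD, n = 3 each), without overlap (log2 fold change 0.72, SE 0.24; limma adjusted p = 0.927). Rapgef4, the cyclic AMP sensor Epac2, averaged 3674 ± 28.3 in Hdac2 cKO and 2506 ± 931 in WT, also without overlap, and its log2 fold change of 0.63 was 0.29 without WT 3. Adcy6 of the same list was lower without overlap, at 924 ± 88.2 in Hdac2 cKO and 1158 ± 223 in WT (SD, n = 3 each). Its log2 fold change was -0.31 (SE 0.22). Gnas, which encodes Gs alpha, averaged 1736 ± 533 in Hdac2 cKO and 2910 ± 1644 in WT (SD, n = 3 each), with overlap. The Gi and Go list had 5 of 7 above 0 (median 0.14), the Gq and phospholipase C list 11 of 13 (median 0.17), and the receptor desensitisation list 4 of 7 (median 0.004).

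Ion channels that prostaglandin and bradykinin signalling sensitises had 12 of 14 genes above 0 and a median of 0.41, which was 0.06 without WT 3. Trpa1, the irritant channel, averaged 1684 ± 275 in Hdac2 cKO and 1004 ± 542 in WT (SD, n = 3 each). The fitted difference was 0.88 on the log2 scale, or 0.49 without WT 3. For Trpv1, the heat and capsaicin channel, it was 0.59, or 0.38 without WT 3. Weighting the libraries called both of these and the sodium channel gene Scn9a, 3 of the 92 tested genes of the lists, against 3.08% of all genes. The median of the channels thus lay beside that of the receptors, 0.41 in both, and both became smaller without WT 3, 0.17 for the receptors. Leaving out WT 3 also moved the median over all genes, from 0.06 to -0.010.

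**Figure D5:**
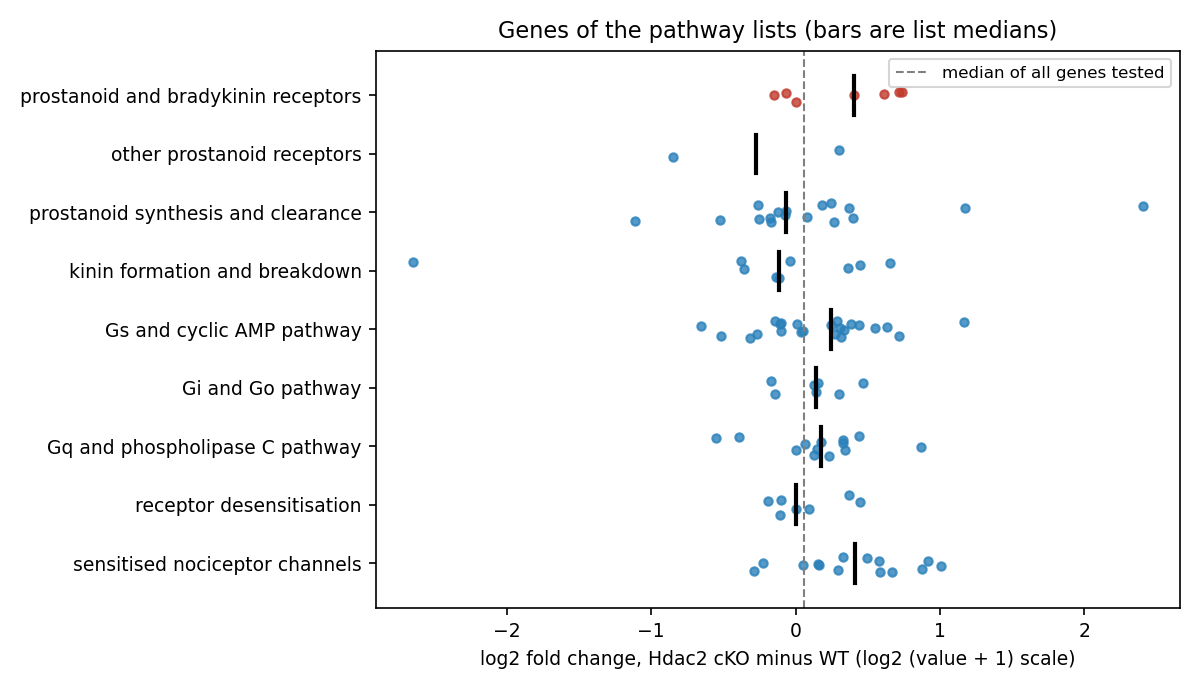
Log2 fold change (horizontal axis, Hdac2 cKO minus WT, log2 (value + 1) scale) of each tested gene of the receptors (red) and of 8 pathway lists (blue), with list medians as bars and the median of all genes tested as a dashed line. The receptors and the sensitised channels have the highest medians (0.41 each), and no gene shown passed limma's test over all genes.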

How the data were processed

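Bulk RNA-seq of dorsal root ganglia was read in 6 libraries, 3 Hdac2 cKO and 3 WT, grouped and numbered by their titles. Trizol was used to extract RNA from flash-frozen tissue, per the labels' protocols. Per the submitters' processing notes, the build was mm10 and the tools were HISAT2, SAMtools, featureCounts and DESeq2. Their versions, the annotation and any strand setting were not given in the sources used here. The deposited values are a signal, the reads of a gene divided by a factor of its library: 100% of values were whole multiples of the value of 1 read within 0.01, and reads were recovered from them.

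Values were tested as log2 (value + 1) with limma 3.58.1 (R 4.3.3), with trend and robust variances, two-sided, and 18410 genes that reached 10 in 3 or more libraries entered. P-values were adjusted by Benjamini-Hochberg over all of them at 0.05. Symbols, coordinates (GRCm38, the assembly of mm10) and lengths came from GENCODE M21, which matched 54409 of 54532 identifiers, and promoters from RefSeq (GRCm38.p6), which held 6 of the 8 receptors. Alternatives were edgeR 4.0.16, DESeq2 1.42.0 and limma-voom on recovered reads, other scalings, pseudocounts (0.5 and 5) and filters, array weights, a sex term, the replicate block and leaving out libraries.

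Members and lists were chosen with earlier results of these data known. Named genes were the 8 members and Hdac2, up to 2 genes per list and direction with the smallest p, the 2 listed genes nearest to each tested member, and genes overlapping or adjoining members. Some genes that this rule selects are not reported here. Abcc4 was named as the 1 gene of its list without overlap, and Ptgdr2 as a receptor below the filter, after their values were seen. Deviations from the group means correlated by 0.40, 0.15 and 0.42 for libraries numbered 1, 2 and 3, all over 0.1, the limit set for treating the numbers as pairs. Between libraries of unlike number they correlated by -0.50 to 0.34. The highest of these was Hdac2 cKO 2 with WT 1, above the 0.15 of number 2, so the values do not single out number 2 as a pair. The labels do not state a pairing by number.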

Additional observations from a re-analysis of the deposited data

How the results depend on the processing

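No receptor passed over all genes by limma, edgeR, DESeq2 or limma-voom, under any scaling, pseudocount, filter, sex term or replicate block, or without any single library; array weights called 1, Ptger3 (0.98). Over all genes limma called 0 (341 at an unadjusted p under 0.05), edgeR and limma-voom 0, DESeq2 23, array weights 567, DESeq2 with the replicate block 60 and limma without both libraries numbered 3 5. Leaving out each library gave 0 calls throughout. The replicate block in limma gave 0 calls and changed no receptor's call.

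Ptger3 and Ptgir kept a log2 fold change above 0 in every alternative run, from 0.38 to 1.08 and from 0.19 to 0.87 when single libraries were left out. Directions turned for the others as follows. Ptger1 turned to 0.10 without Hdac2 cKO 1 and 0.19 without WT 2, with a range of -0.26 to 0.19 over libraries left out. Ptger2 turned to -0.0077 with array weights and ranged from 0.17 to 1.11. Ptger4 turned to 0.045 without Hdac2 cKO 2, the range being -0.34 to 0.045. Bdkrb2 turned to -0.11 without WT 3, the range being -0.11 to 0.67. Ptgdr, at 0.002, turned to -0.020 with TMM scaling, -0.10 by edgeR, -0.068 by DESeq2, -0.026 by limma-voom, -0.006 without Hdac2 cKO 1, -0.02 without Hdac2 cKO 3, -0.12 without WT 1 and -0.18 without WT 2, and was at 0.31 without WT 3. Hdac2 was called by DESeq2 (-2.51), by DESeq2 with the replicate block (-2.47) and with array weights (-2.13), and ranged from -2.76 to -2.24.

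Differences of shares, Hdac2 cKO minus WT in percentage points, turned without WT 3 for Ptger2 (-0.036), Ptgir (-1.30), Ptgdr (1.81) and Bdkrb1 (0.11), without WT 2 for Ptger1 (0.0040), and for Bdkrb2 without Hdac2 cKO 3 (0.17), WT 1 (0.27) or WT 2 (0.66). By libraries left out, the ranges were -0.63 to 0.0040 for Ptger1, -0.036 to 0.34 for Ptger2, 1.75 to 6.43 for Ptger3, -2.48 to -0.74 for Ptger4, -1.30 to 11.0 for Ptgir, -14.6 to 1.81 for Ptgdr, -0.29 to 0.11 for Bdkrb1 and -0.96 to 0.66 for Bdkrb2. The longest coding transcript as length turned none of them. The cause was not tested. Depth limits Bdkrb1, with 10 reads or fewer per library, and Ptger2, with 12 to 74.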

Other observations

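Genes beside the receptors on the chromosome were read as values only. Calm3, a calmodulin gene that ends 4474 bases from Ptgir, stood at 44056, 44134 and 43878 normalised read counts in Hdac2 cKO 1, 2 and 3, against 43931, 59510.2 and 88339.6 in WT 1, 2 and 3. Gng8, a G protein gamma subunit gene 11054 bases before Ptgir, stood at 276, 368 and 370.0 in Hdac2 cKO, against 328, 496 and 1245 in WT. Both neighbours were thus highest in WT 3, where Ptgir was lowest. Of all genes tested, 30.5% were highest in WT 3 and 40.4% lowest. Gipc1, 1984 bases before Ptger1, stood at 1819.6, 1789 and 1679.97 in Hdac2 cKO, against 1871, 2658 and 2947 in WT, so that every WT library was above every knockout library. Zranb2, 18482 bases before Ptger3, was highest in the libraries numbered 3, at 6430.3 in Hdac2 cKO 3 and 6059.9 in WT 3, where Ptger3 was lowest of each group. Ptgdr and Ptger2, which both raise cyclic AMP, lie on opposite strands 128820 bases apart, and in WT 3 Ptgdr was highest and Ptger2 lowest of the 6 libraries. Other neighbours went the same way as their receptor. Txndc16 beside Ptger2 (760 in WT 3) and D430019H16Rik beside Bdkrb2 (983 in WT 3) were lowest in WT 3, as those receptors were.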
